A study of Mus musculus with 12 samples.

Results

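Irradiated mice that carried the label Ab_IR were compared with mice that were irradiated alone (IR). The comparison rests on 6 of the 12 libraries of the series, namely the 3 titled Ab_IR_HSC and the 3 titled IR_HSC, each with replicate numbers 1 to 3. All were RNA-seq libraries of cells sorted as hematopoietic stem cells (HSCs) from the bone marrow of wild-type mice, collected 3 days after ionizing radiation (IR). The labels give Ab as part of the treatment name and do not spell it out, so it is used here as given, as is the L of the third irradiated group, L_IR. The Ctrl group, which was labelled as control, and the L_IR group, which was collected at the same time after irradiation, held 3 libraries each and serve below to place the values, in a test of Ab_IR against L_IR and in a fit over all 12 libraries. Nothing states that the libraries of a group came from separate mice, so the p-values measure the spread between these libraries, which may be technical.

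HSCs sit at the top of blood formation. They give rise to progenitors that commit to the red cell, megakaryocyte, granulocyte, mast cell, monocyte or lymphoid lineage, and each lineage switches on a characteristic set of granule proteins, receptors or oxygen carriers. According to the study's methods the sort kept cells without lineage markers that were positive for Sca1 and c-Kit and negative for Flt3 and CD34. Such a sort is meant to remove the mature cells whose transcripts are described below. Ionizing radiation depletes dividing marrow progenitors within days, and granulocyte precursors, red cell precursors and megakaryocytes recover at different rates.

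The values are FPKM as the authors deposited them, that is, fragments per kilobase of transcript scaled to the total of the library, so that levels can be compared between genes. The number of reads behind an FPKM is not part of it, and the depth is therefore unknown. The sum of FPKM was 371036 to 374497 in the IR libraries and 393117 to 405123 in the Ab_IR libraries, and 11467 to 11532 and 11954 to 11989 genes reached 1 FPKM. Pearson's r of log2(FPKM + 1) across genes, which are not independent replicates, was 0.9939 to 0.9953 within IR and 0.9903 to 0.9932 within Ab_IR. Immunoglobulin genes took 17.2% to 18.0% of the summed FPKM in IR and 13.5% to 14.3% in Ab_IR.

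Transcripts of heart muscle parted the groups and were set aside. A list of 44 heart muscle genes summed to 296 to 353 FPKM in the IR libraries and to 59.6 to 62.2 FPKM in the Ab_IR libraries, and Nppa, an atrial hormone, was at 51.2 to 63.9 FPKM in IR and at 0 to 0.26 FPKM in Ab_IR. Ctrl replicates 2 and 3 held these transcripts too, whereas Ctrl replicate 1 and all L_IR libraries did not. The split therefore runs along the line between IR and Ab_IR, and a batch on that line and the group difference cannot be told apart by comparing these 6 libraries. Another 13 genes outside the list followed the same split over the 12 libraries, among them Ifitm1, Mgp, Hspb1, Gpx3 and Acta2, and this is repeated where they are named.

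Several HSC markers were at or near the floor in both groups. Of 10 stem cell genes, 4 (Slamf1, Mecom, Fgd5 and Hoxb5) stayed below 1 FPKM in all 6 libraries, with 0.88 FPKM as their highest value. Kit was at 6.70 to 19.07 FPKM and Ly6a, which encodes Sca1, at 35.67 to 61.47 FPKM. Hlf, a transcription factor of HSCs, was at 1.14 to 2.11 FPKM. The libraries are therefore called by their labels below, and transcripts of mature cells are described as they were measured.

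A gene was called when its adjusted p from limma was below 0.05 and its difference on the log2(FPKM + 1) scale exceeded 1, a scale that understates the change of genes near 1 FPKM. Of 12039 genes tested outside the heart list, 617 rose in Ab_IR, which is 5.13% of those tested, and 271 fell, which is 2.25%. In either direction the 888 called genes were 7.38% of those tested. The median difference over all genes was 0.06. By adjusted p alone 39.5% of genes were higher and 29.2% lower, and for 72.9% of genes the libraries of the groups did not overlap, so small differences were frequent. Among the called genes 4 had overlapping groups (Ptp4a1, Gm8666, Gm10076 and Rpl30-ps10). When the heart transcript split was entered as a term over all 12 libraries, 1489 genes were called higher and 470 lower, of which 520 and 195 were also called without the term. That fit rests on Ctrl replicate 1, the only Ctrl library without heart transcripts, in which 44.1% of gene rows were at 0.

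**Figure D1:**
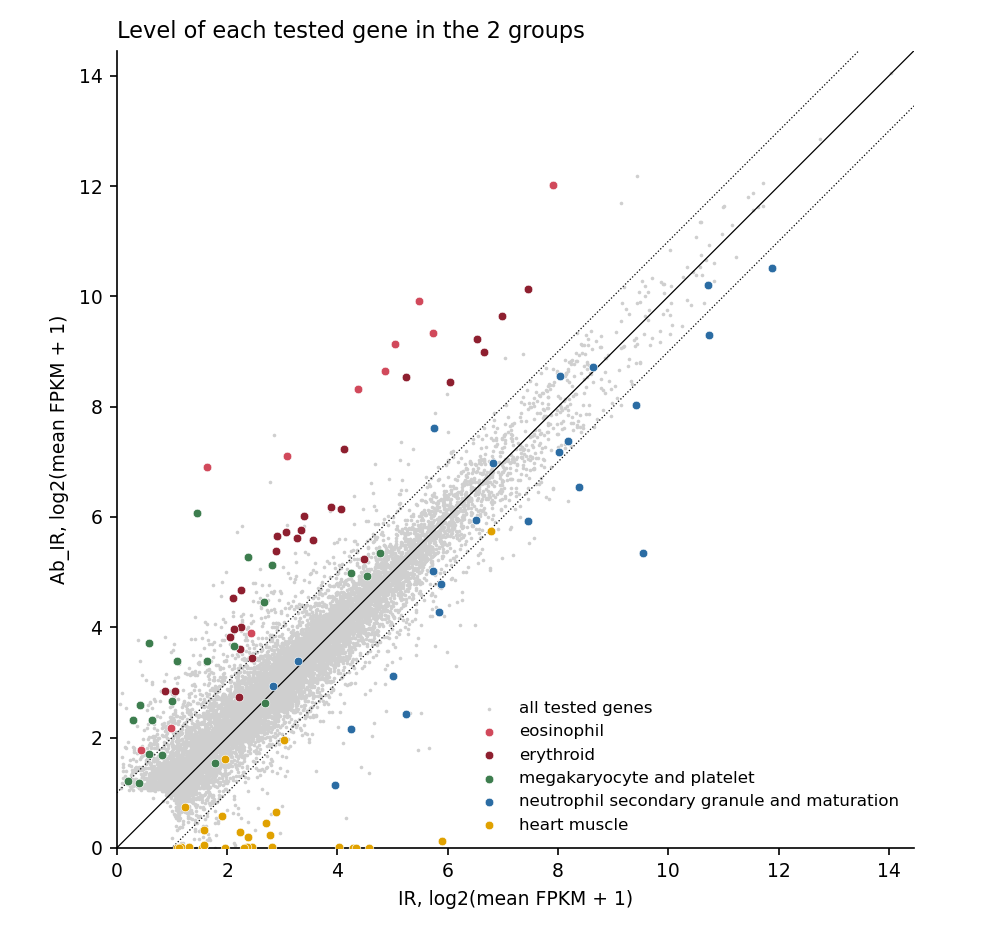
Mean level of each tested gene in IR (x axis) and in Ab_IR (y axis), both as log2(mean FPKM + 1), with the dotted lines marking a difference of 1. The eosinophil and erythroid genes lie above the upper dotted line except for 3 erythroid genes, most neutrophil maturation genes lie below the diagonal, and the heart muscle genes lie below it.

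On the log2(FPKM + 1) scale, and where the mean reached 10 FPKM, 8 of the 12 largest rises were on the list of eosinophil genes, and the other 4 were Ear-ps2, Ear-ps9, Ppbp and Rpl29. Eosinophils are granulocytes that carry cationic granule proteins. All 11 eosinophil genes tested were called higher, against 5.13% of all genes, with a median difference of 3.95. Among them Il5ra reached 1 FPKM in the Ab_IR libraries alone and could enter the test only by being higher there. Prg2, the eosinophil major basic protein, was at 236, 238 and 246 FPKM in the IR libraries and at 4142, 4230 and 4156 FPKM in the Ab_IR libraries. No IR library came near the Ab_IR range, and the ratio of the means was 17.4-fold (log2 difference 4.11, SE 0.03, adjusted p = 2.65e-09). Epx, the eosinophil peroxidase, was at 52.5 ± 1.32 FPKM in IR and at 641.8 ± 32.2 FPKM in Ab_IR (SD, n = 3), a 12.2-fold rise. Prg3, a homologue of major basic protein, rose by 3.95 and Alox15, a lipoxygenase, by 4.01 on the log2 scale. The surface receptors of this lineage were lower in level, and Il5ra, Ccr3 and Siglecf rose by 1.34, 1.2 and 1.46.

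The eosinophil-associated ribonucleases accounted for 6 of the 12 largest rises. Ear10 was at 1.93 to 2.38 FPKM in IR and at 110 to 132 FPKM in Ab_IR, and its log2 difference of 5.28 was the largest rise of the named genes. Ear2 went from 43.5 to 44.1 FPKM up to 932 to 1015 FPKM. These genes are near copies of each other. Of the sequence stretches of 50 bases in Ear1, Ear2, Ear10, Ear-ps2 and Ear-ps9, 39.9% to 60.8% occur in another Ear gene, so their single values are uncertain, while Ear6, with 0.954% shared, rose by 3.79. Prg2 and Prg3 shared no such stretch. The summed level of the eosinophil list was 426 to 436 FPKM in IR, 7233 to 7402 FPKM in Ab_IR, 5058 to 6681 FPKM in Ctrl and 3087 to 3121 FPKM in L_IR. In pooled cells such as these, fewer cells of a type and less RNA per cell cannot be told apart.

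**Figure D2:**
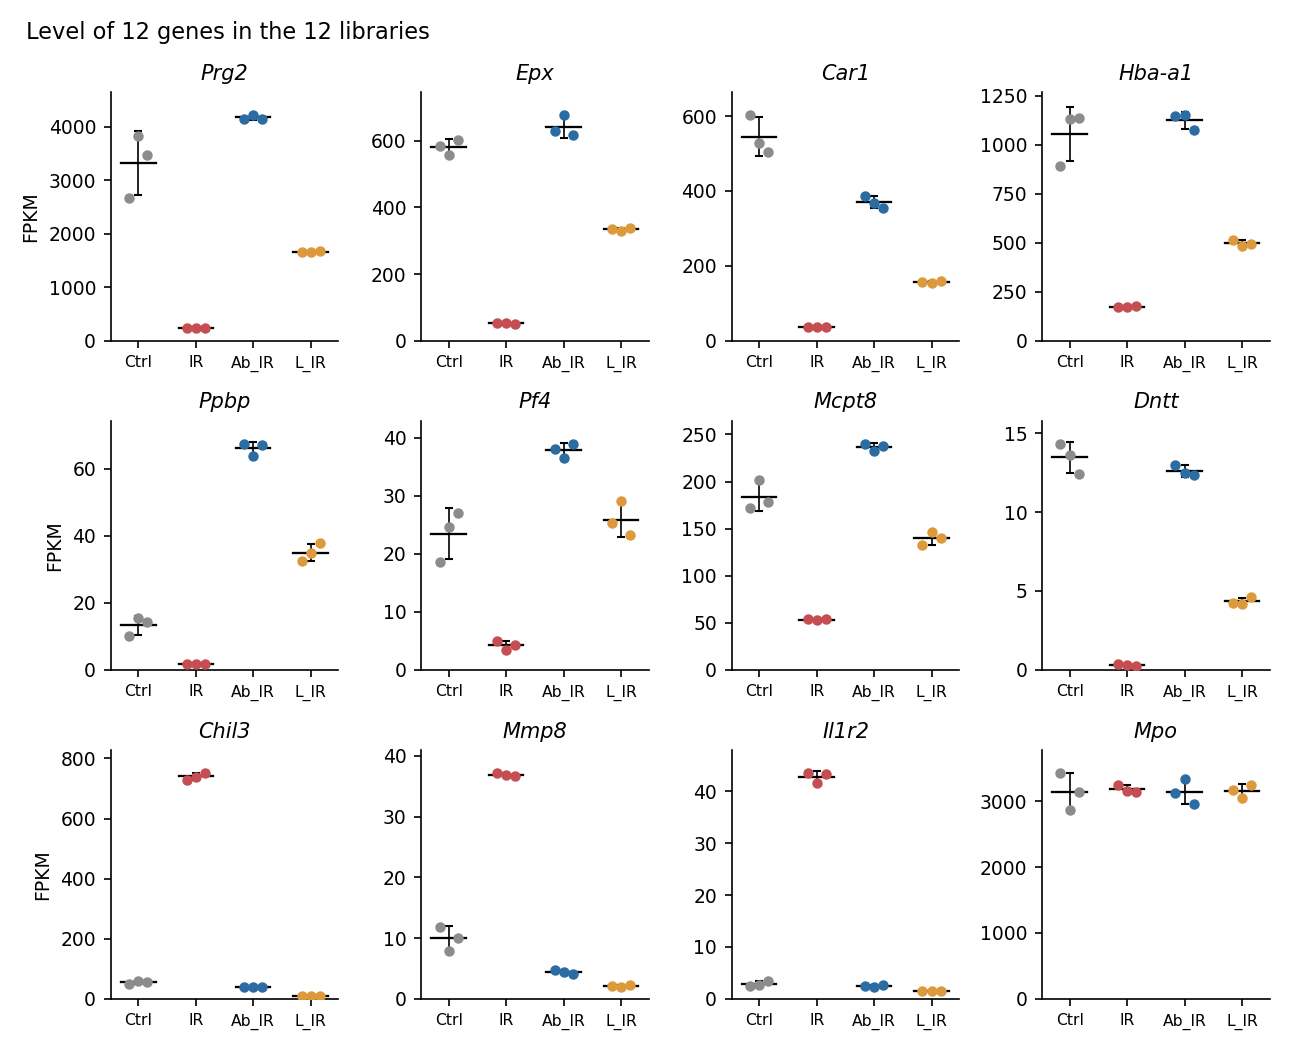
FPKM of 12 genes in every library (y axes start at 0), with points for the 3 libraries of each group and bars for mean and SD. From Prg2 to Dntt the IR libraries are the lowest of the 4 groups, in Chil3, Mmp8 and Il1r2 they are the highest, and in Mpo the IR and Ab_IR libraries overlap.

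Erythroid genes formed the next group. All 27 genes of the list were tested and 24 rose, where 5.13% of all tested genes rose, with a median difference of 2.34 and a range from 0.52 to 3.30. The other 3, Fech, Slc25a37 and Bpgm, were higher by 0.99, 0.75 and 0.52 and were not called, and all 27 were higher by adjusted p alone, against 39.5% of all genes. Tspo2, 1 of the 24, entered the test through the Ab_IR libraries alone. The α-globin gene Hba-a1 was at 174, 175 and 176 FPKM in IR and at 1077 to 1155 FPKM in Ab_IR, a 6.44-fold rise. The β-globin gene Hbb-bs was at 122 to 130 FPKM and at 745 to 835 FPKM, a 6.36-fold rise. The globin copies share 53.2% to 89.3% of their 50-base stretches with their sister gene, so the split between copies is uncertain and the sum is the safer value. Car1, an erythroid carbonic anhydrase, had the largest difference of the list at 3.30 (36.7 ± 0.90 FPKM in IR, 370 ± 16.4 FPKM in Ab_IR, SD, n = 3).

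Regulators, surface proteins and enzymes of red cell precursors rose together with the globins. Gata1 and Klf1, the transcription factors that drive the red cell programme, rose by 2.50 and 2.31. Epor, the erythropoietin receptor, was at 3.59 to 4.12 FPKM in IR and 23.96 to 25.11 FPKM in Ab_IR. The membrane proteins Aqp1, Rhd and Slc4a1 rose by 3.11, 2.74 and 2.07. Alas2, the first enzyme of erythroid heme synthesis, rose by 2.43, and Blvrb, a biliverdin reductase, by 2.67. The summed level of the list was 744 to 760 FPKM in IR and 4421 to 4643 FPKM in Ab_IR, with 4680 to 5169 FPKM in Ctrl and 2416 to 2479 FPKM in L_IR. With the heart transcript split as a term 25 erythroid and 10 eosinophil genes were called higher.

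GATA factors bind the letters AGATAA, and the promoters of the genes that rose were searched for them on both strands (reverse complement TTATCT). RefSeq promoters on GRCm38.p6, 250 bases before to 50 after the gene start, were at hand for 27025 genes, of which 11.4% held the motif, against 6.59% of the 8516 genes tested that matched. It was present in 14.5% of the promoters of genes called higher and in 13.6% of those called lower, which is close to equal. Among the lists it was present in 6 of 18 called erythroid promoters, 5 of 6 called mast cell and basophil promoters, 4 of 12 called megakaryocyte promoters and 2 of 9 called eosinophil promoters. Over the whole lists, called or not, it was present in 6 of 19, 6 of 12, 5 of 19 and 2 of 9 promoters. A match is a description of the letters and not a bound site. Below are windows around the match, read on the strand of the gene with the motif in capitals, at chr4:134864453-134864538 (Rhd), chrX:150547291-150547376 (Alas2), chr16:30310813-30310898 (Gp5), chr19:11623685-11623770 (Ms4a2) and chr6:106749066-106749151 (Il5ra). They are shown because each gene is a marker of its lineage, respectively red cells, red cells, platelets, mast cells and eosinophils, that was called higher in Ab_IR.
Rhd: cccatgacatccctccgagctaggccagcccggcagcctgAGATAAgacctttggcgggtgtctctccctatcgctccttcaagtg
Alas2: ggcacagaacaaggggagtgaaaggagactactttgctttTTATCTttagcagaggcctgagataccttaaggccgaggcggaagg
Gp5: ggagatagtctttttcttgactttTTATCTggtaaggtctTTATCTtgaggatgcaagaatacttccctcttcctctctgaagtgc
Ms4a2: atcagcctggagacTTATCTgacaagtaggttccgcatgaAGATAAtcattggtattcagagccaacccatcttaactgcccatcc
Il5ra: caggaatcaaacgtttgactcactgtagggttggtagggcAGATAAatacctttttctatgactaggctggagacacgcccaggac

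Megakaryocyte and platelet genes were mostly higher as well. Of 21 tested, 14 rose and 0 fell, against 5.13% and 2.25% of all genes, with a median difference of 1.64. Of the 14, 6 reached 1 FPKM in the Ab_IR libraries alone, so they could enter the test only by being higher there, and the other 8 did not depend on this. Ppbp, a chemokine stored in platelet granules, was at 1.70 to 1.84 FPKM in IR and at 63.92 to 67.53 FPKM in Ab_IR, a 37.8-fold difference of the means. Ppbp also set Ab_IR and L_IR apart from Ctrl and IR, since Ctrl held 10.1 to 15.3 FPKM and L_IR 32.5 to 37.7 FPKM. Pf4, platelet factor 4, was at 3.41 to 4.89 FPKM and at 36.51 to 39.00 FPKM. Tubb1, the platelet β-tubulin, rose by 3.13 and Thbs1, an adhesive α-granule protein, by 2.32. Subunits of the von Willebrand factor receptor rose in the same direction, Gp9 by 2.29, Gp1ba by 1.67 and Gp5 by 1.64. The integrin Itga2b rose by 1.80. Selp and Vwf, which endothelial cells express too, differed by -0.23 and 0.87 and were not called. The summed level was 98.4 to 108 FPKM in IR, 337 to 338 FPKM in Ab_IR, 198 to 222 FPKM in Ctrl and 230 to 237 FPKM in L_IR.

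Mast cell and basophil genes rose in 6 of 8 members tested, with a median of 1.71 and 0 falls, and 5.13% of all tested genes rose. Mcpt8, a basophil protease, was at 52.8 to 53.8 FPKM in IR and 233 to 240 FPKM in Ab_IR. Prss34, another basophil protease, was at 125 to 134 FPKM and at 445 to 483 FPKM. Ms4a2 and Fcer1a, subunits of the high-affinity IgE receptor, rose by 2.25 and 2.02, Cpa3, a mast cell carboxypeptidase, by 1.58 and Il1rl1, the IL-33 receptor, by 1.12.

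**Figure D3:**
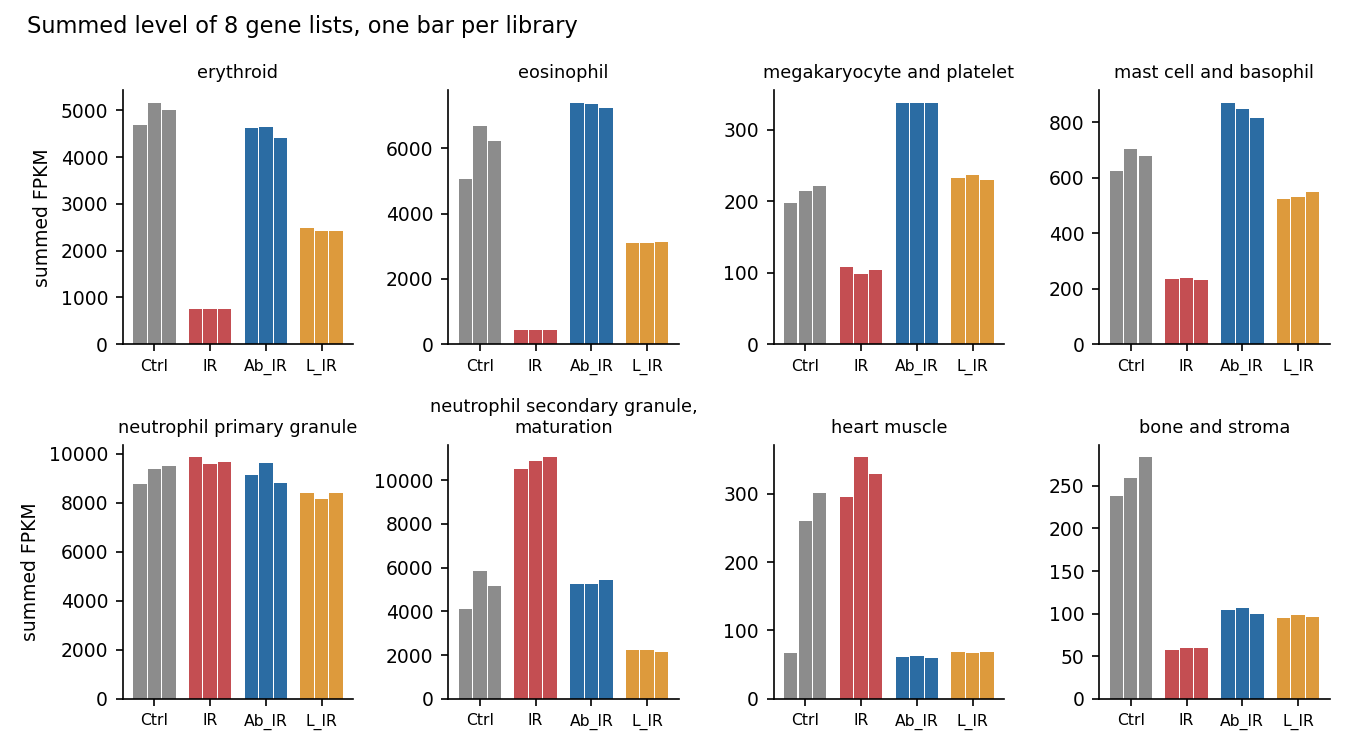
Summed FPKM of 8 gene lists, a bar per library, with the groups along the x axis and the y axes starting at 0. IR is the lowest group in the erythroid, eosinophil, platelet, mast cell and bone panels and the highest in the neutrophil maturation panel, the primary granule sums lie between 8140 and 9856 FPKM in all 12 libraries, and the heart muscle sums of Ctrl replicates 2 and 3, at 261 and 301 FPKM, stand with those of IR.

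Neutrophils make their primary granules as promyelocytes and their secondary and tertiary granules later, and mature cells add chemotactic receptors. Of 10 primary granule genes 0 were called by limma, and 3 were higher and 4 lower by adjusted p alone. With 7.38% of all tested genes called, and 39.5% higher and 29.2% lower by adjusted p alone, these counts lie near the background. Mpo, myeloperoxidase, was at 3131 to 3249 FPKM in IR and 2959 to 3336 FPKM in Ab_IR, so that the groups overlapped (log2 difference -0.02, SE 0.05, adjusted p = 0.75). Elane, neutrophil elastase, differed by 0.12 (SE 0.05, adjusted p = 0.058).

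Of 23 genes of secondary granules and maturation, 12 fell and 1 rose, against 2.25% of all genes that fell, and the median was -1.11. Chil3, a chitinase-like protein, was at 730, 738 and 753 FPKM in IR and at 40.4, 39.7 and 38.5 FPKM in Ab_IR, 18.7-fold lower (log2 difference -4.19, SE 0.03, adjusted p = 2.65e-09). Mmp8, the neutrophil collagenase, was at 36.7 to 37.3 FPKM and at 4.06 to 4.74 FPKM. The gelatinase Mmp9 and Lcn2, an iron-siderophore trap, fell by 1.91 and 1.84 on the log2 scale. Cxcr2, the chemokine receptor of mature neutrophils, fell by 2.10. The calprotectin subunits S100a8 and S100a9 fell by 1.44 and 1.36 from levels of 1567 to 1793 FPKM and 3573 to 3864 FPKM.

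Not all late neutrophil genes followed. Of the 23 tested, 6 had a difference above 0. By adjusted p alone 3 were higher and 17 lower, against 39.5% and 29.2% of all genes. Retnlg, a resistin-like protein of neutrophils, was the single member called higher, at 52.6 to 53.4 FPKM in IR and 187 to 200 FPKM in Ab_IR (log2 difference 1.85, SE 0.04). Camp, the cathelicidin of secondary granules, differed by 0.51, Ltf, lactoferrin, by -0.81 and Ngp by -0.51, and none was called. Ly6g, which defines neutrophils in flow cytometry, was at 4.77 to 7.33 FPKM in IR and at 5.59 to 7.79 FPKM in Ab_IR, so that the groups overlapped. With the heart transcript split as a term 9 genes of the list were called lower and 3 higher.

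Other genes among the largest falls had various roles. Il1r2, the decoy receptor for interleukin 1, was at 41.5 to 43.6 FPKM in IR and at 2.27 to 2.63 FPKM in Ab_IR (17.6-fold lower). Lipg, endothelial lipase, was at 48.8 to 50.6 FPKM and at 2.19 to 2.91 FPKM. Cstdc5, a cystatin-like protease inhibitor, fell by 3.24, Il1f9, an interleukin 1 family cytokine, by 2.61, and Asprv1, an aspartic protease, by 2.40. Dgat2, which makes triglycerides, fell by 2.43, and Ifitm6 by 1.94. Pou2af1, a coactivator of B and plasma cells, fell by 1.93, from 40.9 to 43.4 FPKM down to 9.28 to 11.7 FPKM. Non-overlap of the groups was part of the rule that chose these genes.

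Genes of the sort gate and of early progenitors were next examined. Of 23 tested, 12 rose and 0 fell, against 5.13% and 2.25% of all genes, with a median of 1.03, and 1 of the 12 entered the test through the Ab_IR libraries alone. With the heart transcript split as a term 10 were called higher and 1 lower, with a median of 0.67. Kit was at 6.70 to 7.0 FPKM in IR and at 17.4 to 19.1 FPKM in Ab_IR, a 2.64-fold rise. Ly6a was lower in Ab_IR by 0.61 on the log2 scale (58.6 ± 4.26 FPKM in IR, 38.1 ± 2.84 FPKM in Ab_IR, SD, n = 3, adjusted p = 1.93e-04), which did not reach the fold threshold. Flt3 and Cd34, whose proteins the gate selects against, rose by 2.03 and 1.95, Flt3 from 0.96 to 1.22 FPKM up to 7.45 to 7.57 FPKM and Cd34 from 3.66 to 3.91 FPKM up to 16.8 to 18.3 FPKM.

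Transcription factors and surface proteins of early progenitors were among those called. Gfi1b, a transcriptional repressor needed for red cell and megakaryocyte development, rose by 2.47, and Gata2 and Tal1, which HSCs share with megakaryocyte and mast cell precursors, rose by 1.55 and 1.29. Cd27, Adgrg1 and Sox4 rose by 1.94, 1.77 and 1.72. Hlf was lower by 0.40 and Erg by 0.38, neither past the fold threshold, while Meis1 and Mllt3 were higher by 0.64 and 0.76, at 1.1 to 1.22 FPKM and 2.34 to 2.58 FPKM in Ab_IR. Meis1 reached 1 FPKM in the Ab_IR libraries alone and could enter the test only by being higher there. The markers of mature lineages described above moved in the same libraries, and their part in these differences was not tested.

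Monocyte and dendritic cell genes rose in 7 of 15 members tested, with a median of 0.82, and 3 of the 7 reached 1 FPKM in the Ab_IR libraries alone. Over all tested genes 5.13% rose, and 39.5% were higher by adjusted p alone. Irf8, the transcription factor of monocytes and dendritic cells, was at 7.34 to 7.69 FPKM in IR and 30.2 to 31.5 FPKM in Ab_IR. Ly6c2, a monocyte surface protein, rose by 1.5 and Csf1r, the receptor for macrophage colony-stimulating factor, by 1.23. The count of 7 fell to 3 under quantile normalization and to 4 under median ratio scaling, and Clec9a, Klf4 and Siglech lay at 1.01, 1.001 and 1.04, close to the threshold. Of 14 macrophage genes Adgre1 and Vcam1 rose, by 1.75 and 1.05. Genes of antigen presentation by MHC class II were higher by adjusted p in all 8 members tested, and H2-DMa, H2-Aa and H2-Eb1 passed the fold threshold with 1.63, 1.48 and 1.04. H2-Ob, 1 of the 8, reached 1 FPKM in the Ab_IR libraries alone, so its direction was set by entering the test.

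Several lymphoid genes were higher. Dntt, the DNA polymerase that adds bases at V(D)J joints in early lymphoid cells, was at 0.26 to 0.35 FPKM in IR and at 12.3 to 13.01 FPKM in Ab_IR. Of 12 B cell genes tested 5 were called higher and 0 lower, where 5.13% of all tested genes were called higher. Dntt, Vpreb1, Igll1 and Spib, 4 of the 5, reached 1 FPKM in the Ab_IR libraries alone and could only differ upwards once tested, so nothing is read from the count. Vpreb1 and Igll1, the surrogate light chain of pre-B cells, rose by 1.21 and 1.17 from levels of 0.11 to 0.26 FPKM and 0.05 to 0.09 FPKM. Of 16 T and NK cell genes 3 rose, against the same 5.13%, Cd7 by 1.54, Ccl5 by 1.24 and Trac by 1.14.

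Secretory pathway and immunoglobulin variable genes included falls. Of 22 plasma cell and secretory pathway genes 3 fell and 0 rose, where 2.25% of all tested genes fell and 5.13% rose. Creld2 fell by 1.31, Xbp1, the transcription factor of secretory cells, by 1.06 and Pdia4, a disulfide isomerase, by 1.06. By adjusted p alone 14 of the 22 were lower and 4 higher, against 29.2% and 39.5% of all genes, the latter being Jchain, Sdc1, Tnfrsf17 and Slamf7, which plasma cells express. Of 209 immunoglobulin variable genes 45 fell and 8 rose, against the same 2.25% and 5.13%, with a median of -0.54. Of 11 immunoglobulin constant genes 0 were called by limma, and 3 were higher and 5 lower by adjusted p alone, with a median of -0.05, and these counts lie near the shares over all genes. Ighv3-5 was at 41.4 to 46.5 FPKM in IR and at 3.97 to 4.81 FPKM in Ab_IR, and Igkv4-62 at 83.6 to 93.7 FPKM and 15.1 to 15.9 FPKM. Igkc, the κ constant gene, was at 16423 to 17658 FPKM in IR and at 16760 to 17305 FPKM in Ab_IR, so that the groups overlapped. Reads of variable genes can be split between close copies, so a single variable gene is uncertain.

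Some bone and stromal genes were higher, at low levels. Of 14 tested, 5 had a difference below 0 and 4 were lower by adjusted p alone, against 29.2% of all genes. By the call 8 rose and Mgp fell, where 5.13% of all tested genes rose and 2.25% fell. Of the 8, 5 (Bglap, Bglap2, Col1a2, Cxcl12 and Ibsp) reached 1 FPKM in the Ab_IR libraries alone and Mgp in the IR libraries alone, so their direction was set by entering the test, and the other 3 were not bound in this way. Bglap and Bglap2, the osteocalcin genes, were listed at 0 to 0.14 FPKM in IR and at 4.39 to 6.2 FPKM in Ab_IR. The collagens Col1a2 and Col1a1 were at 0.95 to 0.98 FPKM and 5.80 to 6.26 FPKM in IR and at 10.4 to 10.96 FPKM and 22.1 to 26.5 FPKM in Ab_IR. Serpinf1, a secreted serpin, rose by 2.29 and Cxcl12, the chemokine that retains HSCs in the marrow, by 1.38. Mgp, at 1.55 to 2.25 FPKM in IR and 0 to 0.11 FPKM in Ab_IR, followed the heart transcripts over the 12 libraries. In Ctrl the sum of the list was 239 to 283 FPKM, above Ab_IR at 99.3 to 106 FPKM and IR at 57.6 to 60.1 FPKM.

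**Figure D4:**
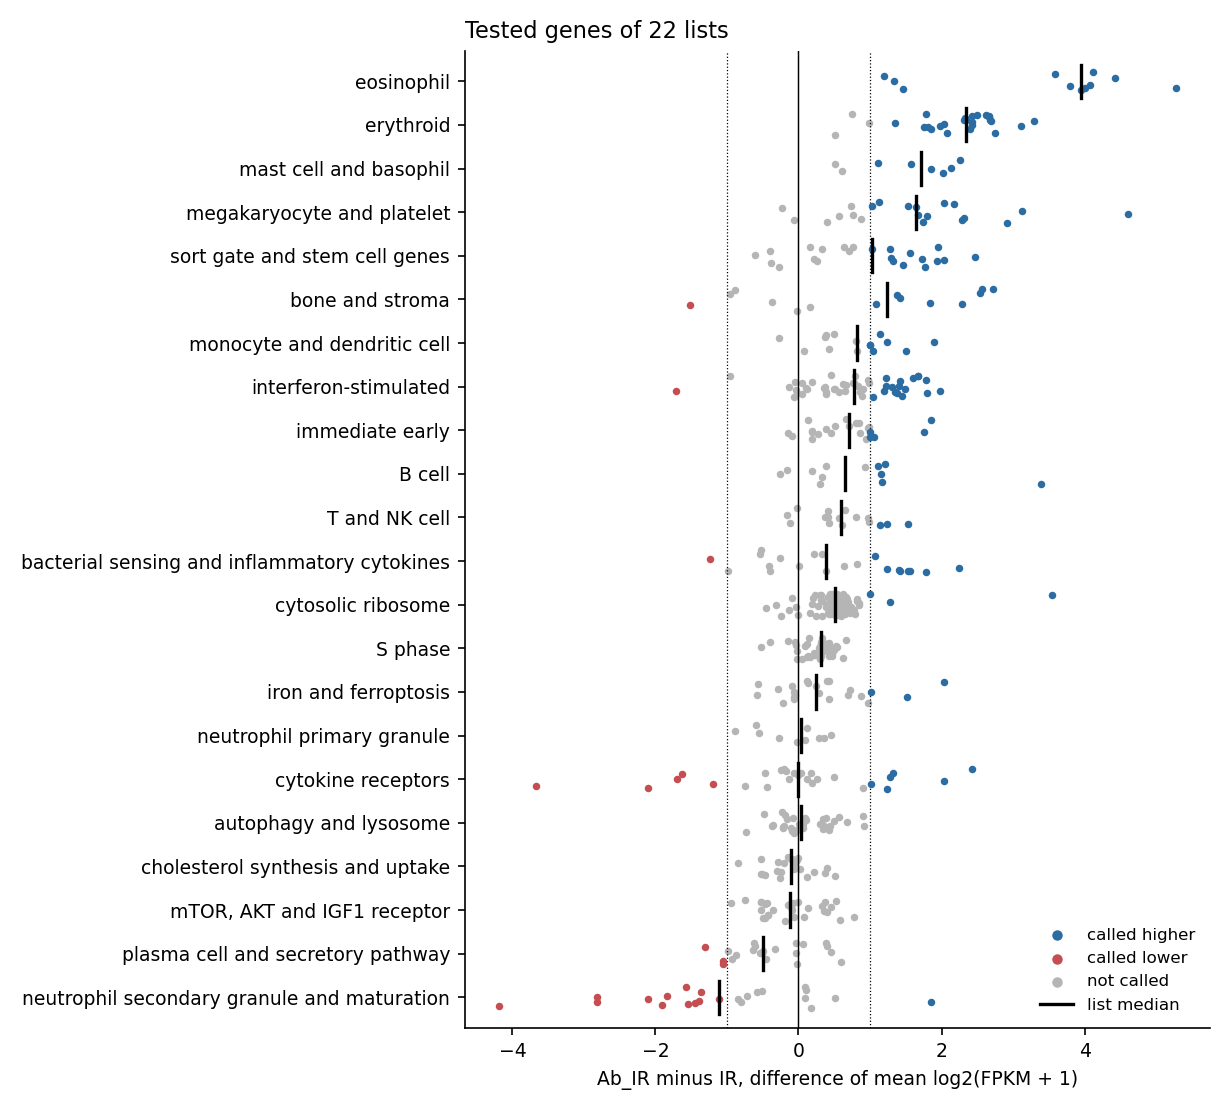
Difference between Ab_IR and IR on the log2(FPKM + 1) scale (x axis) for each tested gene of 22 lists, with genes called higher in blue, called lower in red, others in grey, and the list median as a black bar. The eosinophil, erythroid, mast cell and platelet medians lie at 3.95, 2.34, 1.71 and 1.64, that of neutrophil maturation lies at -1.11, and the lists of mTOR, autophagy and cholesterol genes hold no called gene.

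Interferon-stimulated genes rose in part. Type I interferons act through the interferon-stimulated response element in promoters, and many of their targets block viral replication. Of 49 tested, 17 rose and 1 fell, with a median of 0.77, and by adjusted p alone 38 were higher and 3 lower. Over all tested genes 5.13% rose and 2.25% fell, and 39.5% were higher and 29.2% lower by adjusted p alone. Mx2, Oasl2, Ddx60 and Ifit3b, of which Ifit3b was called, entered the test through the Ab_IR libraries alone and so had to lie higher there. Rsad2, the antiviral viperin, was at 0.33, 2.64 and 2.40 FPKM in IR and at 13.1, 7.62 and 7.37 FPKM in Ab_IR (log2 difference 1.98, SE 0.40, adjusted p = 0.0032). Ifit3 was at 0.66, 2.59 and 3.75 FPKM in IR and at 15.6, 7.64 and 6.95 FPKM in Ab_IR. IR replicate 1 was the lowest and Ab_IR replicate 1 the highest library in both genes, and the groups did not overlap.

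Most other members had a smaller spread. Irf7, the regulator that amplifies interferon production, rose by 1.68, Isg15, a ubiquitin-like modifier, by 1.6 and Usp18, which removes Isg15 from its targets, by 1.67. Ifi27l2a rose by 1.80 and Cmpk2 by 1.49. Eif2ak2, the kinase PKR, differed by -0.13 and was not called. Ifitm1 was the single member that fell (121 to 128 FPKM in IR, 35.0 to 39.1 FPKM in Ab_IR), and it followed the heart transcripts over the 12 libraries. Leaving out any 1 of the 6 libraries left 17 to 19 genes called higher. The summed level of the list, which Ifitm1 and Ifitm3 weigh on, overlapped between the groups at 743 to 794 FPKM in IR and 773 to 837 FPKM in Ab_IR.

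The core of the interferon-stimulated response element, GAAA, any 2 bases and again GAAA, or its reverse complement with TTTC, was searched in the same RefSeq promoters. It was present in 3.49% of the 27025 promoters, in 3.42% of the promoters of genes tested and in 7 of the 13 promoters at hand of interferon-stimulated genes called higher. Over the whole list 23 of 40 promoters held it, so that the share among the called genes was not above that of the list. Of 433 promoters of genes that rose 30 held it, and of 184 of genes that fell 2 did. The windows are shown for the called genes of largest difference with a match, on the strand of the gene with each match in capitals, at chr12:26456523-26456612 (Rsad2), chr19:34583367-34583456 (Ifit3), chr4:156200835-156200924 (Isg15) and chr19:34640764-34640853 (Ifit1). In Isg15 the 3 matches overlap and run together.
Rsad2: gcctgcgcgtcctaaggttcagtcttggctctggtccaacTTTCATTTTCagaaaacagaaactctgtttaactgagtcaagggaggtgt
Ifit3: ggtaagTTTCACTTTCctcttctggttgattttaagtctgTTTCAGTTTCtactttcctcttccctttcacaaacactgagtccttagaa
Isg15: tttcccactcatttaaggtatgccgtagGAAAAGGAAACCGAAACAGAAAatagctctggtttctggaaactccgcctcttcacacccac
Ifit1: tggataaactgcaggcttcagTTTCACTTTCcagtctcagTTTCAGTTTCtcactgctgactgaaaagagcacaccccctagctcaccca

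**Figure D5:**
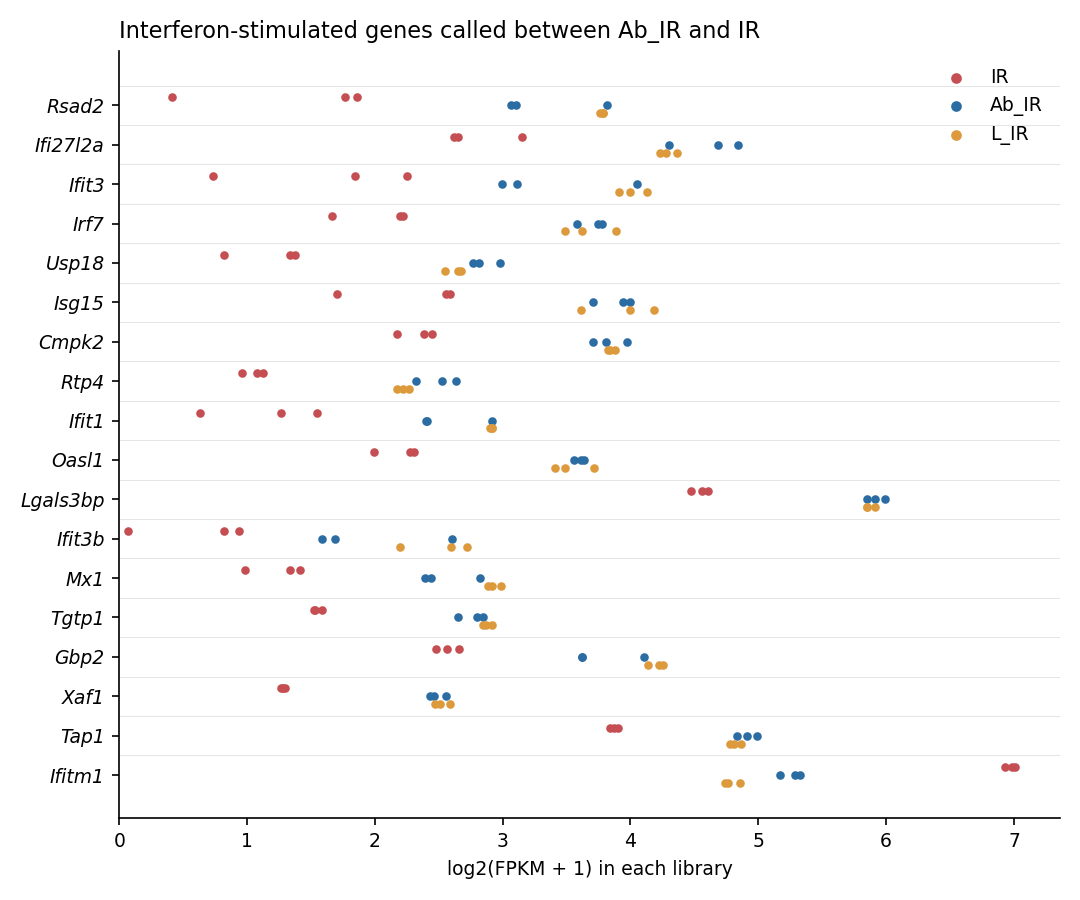
Level of the 18 interferon-stimulated genes called between the groups, as log2(FPKM + 1) on the x axis, with a point per library of IR, Ab_IR and L_IR. In 17 genes the Ab_IR points lie to the right of the IR points and in Ifitm1 to the left, and the spread is widest in Rsad2, Ifit3 and Ifit3b.

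Genes of bacterial sensing and inflammatory cytokines rose in 8 of 21 members and fell in 1, against 5.13% and 2.25% of all genes. The chemokines Ccl4 and Ccl3, which draw in monocytes, rose by 2.25 and 1.53, Ccl4 from 11.4 to 15.4 FPKM up to 66.5 to 68.8 FPKM. Il6 was at 0.86 to 1.12 FPKM in IR and at 5.63 to 6.27 FPKM in Ab_IR. Nlrp3, the inflammasome sensor, rose by 1.41 and Osm, oncostatin M, by 1.41. Tlr4, the receptor for bacterial lipopolysaccharide, fell by 1.23, from 5.68 to 6.29 FPKM down to 1.88 to 2.06 FPKM. Myd88, its adaptor, differed by -0.99, and without IR replicate 1, Ab_IR replicate 1 or Ab_IR replicate 2 the list counted 2 falls.

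Immediate early genes, which respond within minutes to stimulation or tissue handling, were higher by adjusted p in 20 of 23 members, and 5 passed the fold threshold, where 39.5% and 5.13% of all tested genes did. Egr2, 1 of the 23, reached 1 FPKM in the Ab_IR libraries alone, so its direction was set by entering the test. Atf3 was at 5.26 to 5.85 FPKM in IR and at 22.8 to 23.0 FPKM in Ab_IR, and Nr4a1 rose by 1.75. Zfp36, Nfkbia and Klf4 lay at 1.06, 1.003 and 1.001, and 3 genes were called without IR replicate 1. Under median ratio scaling 2 were called.

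Cytokine receptors moved in both directions. Of 27 tested, 6 rose and 5 fell, against 5.13% and 2.25% of all genes, and the median was -0.005. Of the 6, 1 entered the test through the Ab_IR libraries alone. Those that rose included Epor, Flt3, Kit, Csf1r and Cxcr4, the last by 1.01. Il1r2, Cxcr2, Il4ra, Csf2rb and Csf3r fell. Il4ra was at 33.9 to 34.4 FPKM in IR and at 9.50 to 10.3 FPKM in Ab_IR. Csf2rb, the signalling chain shared by the receptors for interleukin 3, interleukin 5 and GM-CSF, was at 75.1 to 75.4 FPKM and 23.0 to 24.5 FPKM. Csf3r, the receptor for granulocyte colony-stimulating factor, fell by 1.19.

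Growth factor signalling, autophagy and cholesterol genes were counted against the 7.38% of all genes called in either direction and the 39.5% higher and 29.2% lower by adjusted p alone. In lists of this size a count of 0 is near that background. Of 30 genes of mTOR, AKT and the IGF1 receptor 0 were called by limma, with a median of -0.12, and 8 were higher and 14 lower by adjusted p alone. Akt1 was lower by 0.52, Igf1r by 0.50 and Mtor by 0.43, while the highest difference of the list was 0.77. Foxo1, 1 of the 30, reached 1 FPKM in the Ab_IR libraries alone, so its direction was set by entering the test. Of 32 autophagy and lysosome genes 0 were called (12 higher and 9 lower by adjusted p), and Psap, a lysosomal saposin precursor, had the largest difference at 0.91. Of 23 cholesterol genes 0 were called (4 higher and 10 lower by adjusted p).

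Iron and ferroptosis genes rose in 3 of 23 members, where 5.13% of all tested genes rose. Steap3, the ferrireductase of red cell precursors, was at 5.69 to 6.22 FPKM in IR and at 18.4 to 19.2 FPKM in Ab_IR, Slc11a2, an iron transporter, rose by 1.02, and Alox12, a platelet lipoxygenase that stands on the platelet list too, rose by 2.03. Alox12 reached 1 FPKM in the Ab_IR libraries alone, so its direction was set by entering the test. Gpx4, which reduces lipid peroxides, was higher by 0.72, Fth1, ferritin heavy chain, by 0.98 and Ncoa4, the receptor for ferritin breakdown, lower by 0.56. None of these 3 passed the fold threshold. Among 18 genes of peroxide control 2 rose and 1 fell, against 7.38% called in either direction over all genes. Prdx2, abundant in red cells, rose by 1.87 and Nqo1 by 1.04, and Txnrd1, thioredoxin reductase, fell by 1.05. Nqo1 lost its call without Ab_IR replicate 2, at 0.952.

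Few cell cycle and p53 genes passed the fold threshold, which 7.38% of all tested genes passed together with the adjusted p. Of 40 S phase genes 0 were called by limma, while 30 were higher and 3 lower by adjusted p alone, where 39.5% and 29.2% of all tested genes were, and Pcna, the replication clamp, was higher by 0.50. Of 38 genes of G2 and mitosis 0 were called, with 7 higher and 17 lower by adjusted p. Among 24 p53 targets 1 rose and 1 fell. Perp, a membrane protein of desmosomes, rose by 1.36 (0.62 to 1.34 FPKM in IR, 4.05 to 4.24 FPKM in Ab_IR), and Tigar, a regulator of glycolysis, fell by 1.04. Of 20 heat shock chaperones Hsph1 fell by 1.26 and Hspb1 by 1.22, the latter following the heart transcripts. Hspb1 reached 1 FPKM in the IR libraries alone and so could only fall.

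Translation and respiration genes had few calls, and their counts by adjusted p alone are read against 39.5% of all genes higher and 29.2% lower. Of 88 cytosolic ribosome genes 80 were higher and 2 lower by adjusted p, with a median of 0.52, and 3 passed the fold threshold (Rpl29, Rps27 and Rpl21). Rpl32l, 1 of the 88, reached 1 FPKM in the Ab_IR libraries alone, so its direction was set by entering the test. Rpl29 stood apart at 3.34 to 3.81 FPKM in IR and 50.9 to 52.3 FPKM in Ab_IR. It was at 0.39 to 4.72 FPKM in Ctrl and 47.3 to 49.0 FPKM in L_IR, so that its line ran between Ctrl and IR on one side and Ab_IR and L_IR on the other. Over all tested genes 13 were higher and Podxl was lower in every Ab_IR and L_IR library than in every Ctrl and IR library by more than 1 on the log2 scale. Of 77 mitochondrial ribosome genes 21 were higher and 11 lower by adjusted p, with a median of 0.03, and Mrpl53 fell by 1.11. On leaving out a library Mrpl53 ran from -1.42 to -0.94, so it did not always pass the fold threshold, and with the heart transcript split as a term it turned to 0.25. Of 44 complex I genes 0 were called by limma, with 28 higher and 3 lower by adjusted p, and of 40 genes of complexes III, IV and V 0 were called, with 24 higher and 1 lower. With the heart transcript split as a term 68 cytosolic ribosome genes and 21 complex I genes were called higher.

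The L_IR group was irradiated and collected at the same time as Ab_IR and lies on the same side of the heart transcript split, so that a test of Ab_IR against L_IR shows where Ab_IR differed from the other treated group. Of 12191 genes 36 were higher in Ab_IR (0.295%) and 29 lower (0.238%), together 0.533%. By adjusted p alone 18.2% were higher and 19.8% lower, and the libraries of the groups did not overlap for 51.9% of genes. Without immunoglobulin genes, and after rescaling, the counts were 25 and 38. Both comparisons use the Ab_IR libraries and are given side by side only. In the eosinophil list 6 of 11 genes were higher in Ab_IR than in L_IR, Prg2 by 1.32 and Ear1 by 1.45. In the erythroid list 4 of 27 were higher, namely Car1 by 1.24, Hba-a1 by 1.17, Hba-a2 by 1.09 and Hbb-bs by 1.02.

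By its median, the neutrophil maturation list differed from L_IR (0.94) in the direction opposite to that from IR (-1.11). Not every member did, since 6 of 23 had a difference above 0 against IR, Camp among them. Retnlg was called higher in both comparisons, by 1.85 against IR and 1.05 against L_IR. Of 22 genes tested 10 were called higher in Ab_IR than in L_IR and 0 lower, where 0.295% and 0.238% of all tested genes were. Ltf was at 287 to 290.4 FPKM in IR, at 160 to 169 FPKM in Ab_IR and at a mean of 32.3 FPKM in L_IR, a difference from L_IR of 2.31. Chil3 was higher in Ab_IR than in L_IR by 1.89, Camp by 1.86 and Ngp by 1.82. The summed level of the list was 10523 to 11042 FPKM in IR, 5250 to 5429 FPKM in Ab_IR and 2155 to 2250 FPKM in L_IR. Of 209 immunoglobulin variable genes 15 were lower in Ab_IR than in L_IR and 0 higher, against 0.238% and 0.295% of all tested genes. Of the 51 interferon-stimulated genes tested against L_IR 0 were called by limma, with 9 higher and 7 lower by adjusted p alone, and Rsad2 differed by -0.45 (adjusted p = 0.097). Over all tested genes 0.533% were called, and 18.2% were higher and 19.8% lower by adjusted p alone, so the interferon counts lie near the background.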

How the data were processed

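RNA of sorted bone marrow cells was sequenced by the authors from stranded poly(A) libraries. The authors deposited FPKM values per gene and library, in tables of 31340 rows with 31272 gene names, of which 62 stood on more than 1 row. Submitters' processing notes name fastp, HISAT2, StringTie and GRCm38/mm10, while the study's methods name RSEM for quantifying gene expression. The study's methods state the version of RSEM, whereas versions of fastp, HISAT2 and StringTie are not given in the sources used here. Since FPKM are not counts, no count model was run and the depth is unknown.

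A gene entered the test when 3 or more of the 6 libraries reached 1 FPKM, log2(FPKM + 1) was fitted with limma 3.58.1 (R 4.3.3, empirical Bayes with a mean trend), and p-values were adjusted by Benjamini-Hochberg over all genes tested. A gene was called at an adjusted p below 0.05 and an absolute difference above 1. Heart muscle genes stayed in the fit and out of the counts. In simulated data 97% to 99.5% of 200 genes changed by 1.5 were recovered in Ab_IR against IR, with at most 2 other calls among 12067 genes. The simulated noise was independent and had the spread of the real genes, and no batch or heart transcript split was put in. The recovery therefore checks the fit and thresholds only and cannot show that a call is free of such a split.

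Named genes were the 12 largest rises and the 12 largest falls among called genes whose groups did not overlap, with a mean of at least 10 FPKM and without immunoglobulin, heart muscle and predicted genes, up to 6 called members of each of 35 lists, and the genes of the sort gate. Genes outside this rule were named for comparison after their values were seen. The members and lists were chosen with earlier results of these data known. Promoters came from RefSeq, 1 per gene symbol. Alternatives covered the pseudocount, filters, scaling, libraries left out, a replicate block, gene length and the heart transcript split. Figures were drawn with matplotlib 3.10.9. Some results are not reported here.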

Additional observations from a re-analysis of the deposited data

How the results depend on the processing

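The counts of Ab_IR against IR kept within 1.5 times the values given under most settings, at 520 higher and 340 lower with quantile normalization, 549 and 315 with median ratio scaling and 494 and 308 with the length trend taken out. A pseudocount of 0.1 gave 1057 and 429, a mean of at least 10 FPKM, which tested 4991 genes, gave 205 and 142, and the heart transcript split as a term gave 1489 and 470. Leaving out a library gave 613 to 638 higher and 262 to 286 lower. For Ab_IR against L_IR a pseudocount of 0.1 gave 61 higher and 103 lower, a mean of at least 10 FPKM 14 lower and the length trend taken out 44 lower, and leaving out a library 31 to 42 and 29 to 38. With the replicate number as a block the counts were 616 and 272 against IR and 37 and 29 against L_IR. Same-numbered IR and Ab_IR libraries deviated together with correlations of -0.0994, 0.0606 and 0.102, so the numbers were not taken to pair the libraries, and the block changed the call of none of the 144 named genes.

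Directions turned for genes with differences near 0 and, under the heart split as a term, also for Nppa, Myl7 and Mrpl53, which had been called lower. Igkc was at 0.00 with quantile normalization, -0.045 with median ratio scaling, -0.13 with the length trend taken out, -0.37 with the heart split as a term and -0.0092 to 0.043 on leaving out a library, and Mpo at -0.0645 to 0.022 on leaving out a library. Elane was at -0.25 and -0.042 with quantile normalization and the length trend taken out, mt-Nd4 at -0.030 and -0.039, mt-Co1 at -0.30 and -0.0649, and mt-Nd1 at -0.014 with quantile normalization. With the heart split as a term Nppa was at 0.075, Myl7 at 0.078, Ctsd at 0.14, Cdc20 at 0.14, Mrpl53 at 0.25, mt-Nd4 at -0.091 and mt-Co1 at -0.012. The cause of these turns was not tested. Of the 144 named genes 18 kept their direction but lost the call with the heart split as a term, 11 with quantile normalization, 10 with median ratio scaling and 10 with the length trend taken out. Nppa, Myl7 and Mrpl53, which turned under the heart split, lost the call too and are not among the 18. Over the 6 fits that left out a library 843 values kept direction and call, 17 lost the call and 4 turned. FPKM carry no depth, so the precision of genes near 1 FPKM rests on 3 libraries a group.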

Other observations

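As 2 single values chosen after they were seen, the heme synthesis enzyme Alad was at 14.6 to 16.3 FPKM in IR and at 65.0 to 74.7 FPKM in Ab_IR, and Urod at 14.2 to 15.8 FPKM and 43.4 to 48.3 FPKM. Both were called higher by limma, at log2 differences of 2.14 and 1.56.

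Other genes that parted Ctrl and IR from Ab_IR and L_IR, as Rpl29 did, included Gpnmb, at 0.40 to 3.34 FPKM in IR and 8.70 to 10.95 FPKM in Ab_IR, Gdpd3, at 1.98 to 2.84 FPKM and a mean of 11.95 FPKM, and Il1rn, the interleukin 1 receptor antagonist, at 0.60 to 2.76 FPKM and 6.58 to 7.27 FPKM. Podxl, a sialomucin of HSCs and endothelium, was at 4.11 to 4.41 FPKM in IR and 0.35 to 0.42 FPKM in Ab_IR.

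A few genes were far higher in Ab_IR replicate 3 than in the other Ab_IR libraries. Lars2 was at 17.1, 20.0 and 130.6 FPKM in the Ab_IR libraries and at a mean of 9.52 FPKM in IR, and Scand1 at 1.6, 6.3 and 36.7 FPKM in Ab_IR and a mean of 21.2 FPKM in IR.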
